A study of Mus musculus with 8 samples.

Results

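The early response of the wild-type mouse liver to GW4064, a synthetic agonist of the farnesoid X receptor (FXR, encoded by Nr1h4), was read from total RNA-seq, with 2 libraries from GW4064-treated and 2 from vehicle-treated mice out of 8 libraries in the series. The mice were C57BL/6 of WT genotype, fasted overnight, and were given GW4064 at 30 mg/kg, or its vehicle, 1 h before the livers were taken. The vehicle is DMSO in the sample labels and corn oil in the Methods. The Methods give male mice and 4 mice per group, and liver RNA of 2 mice was pooled for each library, so p-values measure the spread between pools and not between single animals. Of the 25124 rows in the authors' table, 1 for each gene symbol, 10830 were tested: those at least 300 bases long whose mean in the 4 libraries reached 0.5 RPKM. RPKM is the number of reads scaled to row length and library size, and nearly all rows run from the start to the end of a gene, introns included, so a value can mix unspliced and mature RNA. The paper's Results call this total RNA-seq with rRNA removed, whereas the Methods describe both rRNA removal and polyadenylated mRNA libraries. Whether RNA without a poly(A) tail was kept is therefore not settled by the sources. The other 4 libraries are GRO-seq, which sequences RNA being made by engaged polymerases in isolated nuclei, with 1 library each from WT and FXR KO livers under vehicle and GW4064. According to the Methods, these mice carried a floxed Fxr gene, and the knockout was made with Albumin-Cre, which acts mainly in hepatocytes.

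FXR is a nuclear receptor activated by bile acids. It binds DNA mostly as a heterodimer with RXRα, and its preferred element is an inverted repeat of the half-site AGGTCA with a single base between them. In liver it is best known for raising the repressor Nr0b2 (SHP) and the bile salt export pump Abcb11, and for lowering bile acid synthesis. The question addressed here is which other genes had moved within 1 h.

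After GW4064, 424 rows were higher and 310 were lower at an adjusted p under 0.05 (limma on log2(RPKM + 0.1), Benjamini-Hochberg over 10830 rows), which is 3.92% and 2.86% of the rows tested and 6.78% in all. At an unadjusted p under 0.05 there were 2541 rows, or 23.5%. Increases were larger than decreases: 115 of the 424 higher rows had changed by at least 1 on the log2 scale and 22 by at least 2, whereas 22 of the 310 lower rows had changed by at least 1 and none by 2. The median called increase was 0.68 and the median called decrease was -0.57, while the median over all rows was 0.00. Of the lower rows, 52.9% changed by less than 1.5-fold, as did 38% of the higher rows. The number of calls depended on single libraries: without vehicle library 2, 257 rows were higher and 118 lower, and leaving out any of the other 3 libraries gave 291 to 322 higher and 174 to 186 lower rows. Both GW4064 values lay above both vehicle values in 26.2% of all rows tested and below both in 28.9%, so that separation of the groups alone is common here. With limma-voom on reads rebuilt from the RPKM values, 640 rows were higher and 631 lower.

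**Figure D1:**
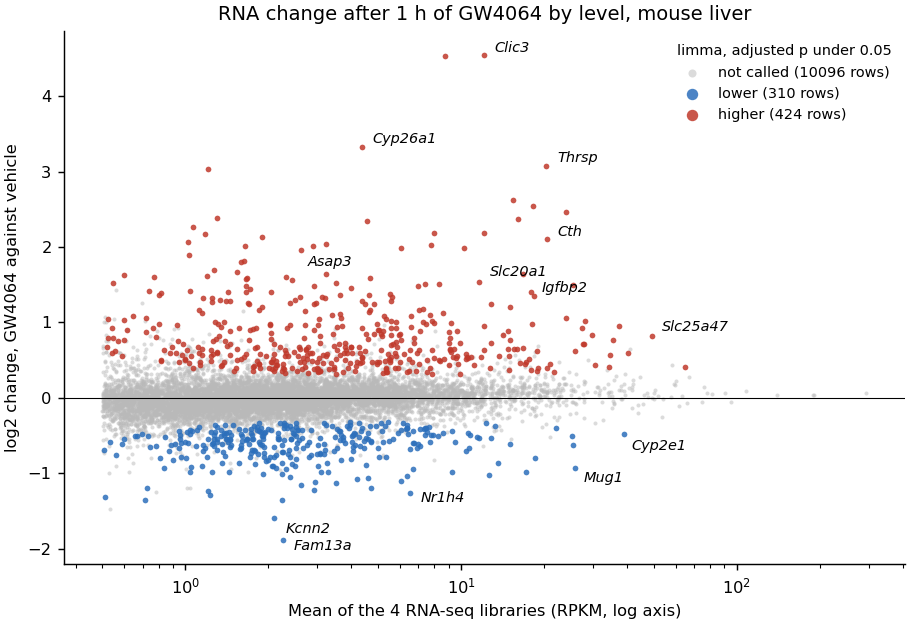
Each point is 1 of the 10830 rows tested, with its mean level over the 4 RNA-seq libraries in RPKM (log axis) against its log2 change after GW4064. Higher rows (red, 424) reach 4.54 and lower rows (blue, 310) reach -1.88, and grey rows did not pass the test.

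Rebuilt library totals ran from 13924451 to 14047207 reads, so depth was alike in the 4 libraries. Hepatocyte markers summed to 521 to 578 RPKM over 13 genes, none of which was under 0.5 RPKM in any library. Markers of Kupffer cells and macrophages summed to 58.4 to 64.8 RPKM, of liver endothelium to 48.4 to 50.8, of stellate cells and fibroblasts to 26.8 to 31.5 and of cholangiocytes to 4.77 to 8.83. Among the 17 T, NK and B cell markers, 16 or 17 were under 0.5 RPKM in each library. None of the 45 tested markers of these 4 non-hepatocyte cell types was called higher by limma, against 3.92% of all rows. At an unadjusted p under 0.05, 6 were higher, and by limma-voom 1 was. Limma called 2 of the 45 lower, against 2.86% of all rows, among them Hand2 (-0.46). The call of Hand2 was lost when any 1 library was left out. In bulk RNA, fewer cells of a type and less RNA per cell cannot be told apart. Library GW4064 2 had the highest sums for neutrophils and monocytes (6.17 RPKM against 3.0 to 4.39) and for pancreas and mesothelium (3.60 against 1.60 to 2.56), and the part of this in any result was not tested.

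The 2 largest increases beyond the best-known FXR targets, those of Clic3 and G6pc2, lay in runs of neighbouring higher rows. Clic3, a chloride intracellular channel protein, was at 0.967 and 0.849 RPKM with vehicle and at 24 and 22.6 RPKM with GW4064 (log2 change 4.54, standard error 0.08, adjusted p = 0.000227 from limma). G6pc2, a relative of the liver glucose 6-phosphatase, was at 0.892 and 0.434 RPKM and rose to 15.9 and 17.7 RPKM (log2 change 4.53, standard error 0.29, adjusted p = 0.00301). Thrsp, a gene of fat synthesis (3.08), the kinase Map3k13 (2.35) and the repressor Hes1 (2.19), a Notch target, were also among the 30 largest.

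Smaller increases among those 30 included genes whose replicates lay close together. Cth, which cleaves cystathionine to cysteine in transsulfuration, was at 8.06 and 7.25 RPKM with vehicle and at 32.9 and 33.4 RPKM with GW4064. The groups were far apart, and the log2 change was 2.10 (standard error 0.08, adjusted p = 0.00079). Asap3, a GTPase-activating protein for ARF proteins, was at 0.959 and 1.07 RPKM with vehicle and at 4.24 and 4.22 RPKM with GW4064, a log2 change of 1.96 (standard error 0.07, adjusted p = 0.000815). Arhgef7, an exchange factor for the GTPases Rac and Cdc42, was at 1.53 and 1.51 RPKM and rose to 4.92 and 4.96 RPKM (log2 change 1.64, standard error 0.06, adjusted p = 0.00079). In these 3 genes the treatment moved the level more than 3-fold.

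Outside the 30 largest, Slc20a1, a sodium-dependent phosphate transporter, was at 5.88 and 5.94 RPKM with vehicle and 17.1 and 17.6 RPKM with GW4064 (log2 change 1.54, standard error 0.06, adjusted p = 0.000839). Rnf186, a ubiquitin ligase of the endoplasmic reticulum, was at 3.8 and 3.77 RPKM and rose to 10.9 and 11.1 RPKM (log2 change 1.51, standard error 0.06, adjusted p = 0.000839). Igfbp2, a binding protein for insulin-like growth factors, was at 10.1 and 9.42 RPKM and rose to 26.4 and 25.7 RPKM (log2 change 1.41, standard error 0.07, adjusted p = 0.00162). It was the 1 higher member of 10 tested genes of IGF1 and its binding proteins, where 6.78% of all rows were called. A single call in a list of this size does not set the list apart from all rows. The 30 largest increases also held the potassium channel gene Kcnk5 (log2 change 1.99), the cytokine Gdf15 (2.03), the Ras-like GTPase Rasl11b (1.89), the cytoplasmic actin Actg1 (1.82), the adaptor Fyb2 (2.02) and the ubiquitin ligase Rnf152 (1.60), with adjusted p from 0.00163 to 0.00485. Actg1 has many processed copies in the genome and its reads may be split among them.

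The largest decreases were smaller in size. Fam13a was at 3.07 and 4.17 RPKM with vehicle and 0.944 and 0.857 RPKM with GW4064 (log2 change -1.88, standard error 0.15, adjusted p = 0.00572). Snai2, a transcriptional repressor of the Snail family, was at 0.972 and 1.17 RPKM and fell to 0.365 and 0.343 RPKM (log2 change -1.36, standard error 0.12, adjusted p = 0.00668). Rnf217, a ubiquitin ligase, was at 2.67 and 2.52 RPKM and fell to 1.23 and 1.25 RPKM (log2 change -1.01, standard error 0.07, adjusted p = 0.00324). The receptor's own gene, Nr1h4, was at 9.09 and 9.38 RPKM with vehicle and 3.90 and 3.72 RPKM with GW4064, a log2 change of -1.26 (standard error 0.06, adjusted p = 0.00163).

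Other metabolic genes among the 30 largest decreases were Lpin1, a phosphatidate phosphatase, Akr1c6, a steroid dehydrogenase, Ces1b, a carboxylesterase, and Fn3k, which removes sugars from glycated proteins. Lpin1 fell from 18.6 and 15.4 RPKM to 7.85 and 8.81 RPKM (log2 change -1.02, adjusted p = 0.0109 from limma). Akr1c6 fell from 7.31 and 9.29 RPKM to 3.59 and 4.03 RPKM (log2 change -1.10, adjusted p = 0.0132). Ahr, the aryl hydrocarbon receptor, fell from 4.01 and 4.33 RPKM to 1.86 and 2.25 RPKM (log2 change -0.99, adjusted p = 0.00996). Ces1b (-1.07), Fn3k (-0.99), the lectin-like Clec2d (-0.98), the GTPase Rab4a (-0.92) and the plasma protein gene Mug1 (-0.93) were lower by similar amounts. Pln and Ifnk, also in this group, lie wholly inside Cep85l and Mob3b, so their reads could not be separated from those of the larger genes.

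**Figure D2:**
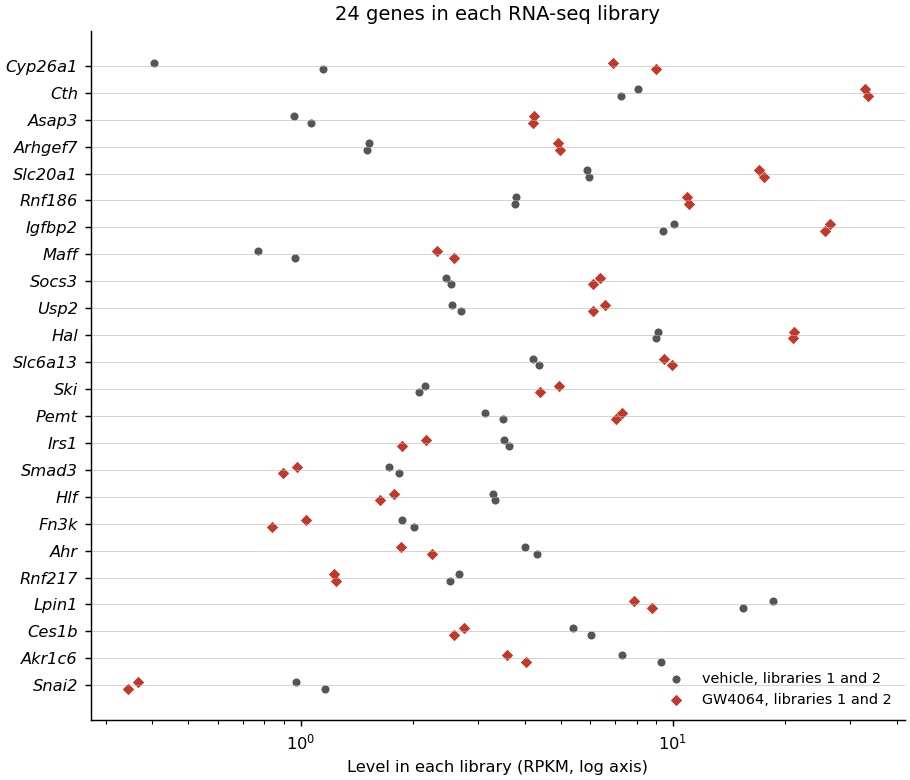
Level of 24 genes in each RNA-seq library in RPKM on a log axis, ordered by log2 change, with vehicle as grey circles and GW4064 as red diamonds. The genes were picked by hand from the called rows, all of which have groups that do not overlap. Among the 24, Cyp26a1 has the widest vehicle pair, at 0.404 and 1.15 RPKM.

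Of 28 tested genes of retinoid metabolism and retinoid receptors, 4 were higher, 2 were lower and 22 did not pass the test, with 21.4% called against 6.78% of all rows, and the median change was 0.08 against 0.00 over all rows. Cyp26a1, the main retinoic acid hydroxylase of liver, was at 0.404 and 1.15 RPKM with vehicle and at 6.90 and 9.02 RPKM with GW4064 (log2 change 3.33, standard error 0.43, adjusted p = 0.0163), a wide spread within the vehicle pair. Its neighbour Cyp26c1 (2.17) and the dehydrogenases Dhrs9 (1.69) and Rdh9 (0.38) were also higher. Aldh1a1, which makes retinoic acid from retinal, was lower by -0.95 (adjusted p = 0.0196), and Rxra, the partner of FXR, was lower by -0.49 (adjusted p = 0.0132). The call of Aldh1a1 was lost without GW4064 library 1, that of Rxra without vehicle library 2 and that of Rdh9 when any 1 library was left out.

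In the list of immediate early genes, which rise fast after many stimuli, 7 of 28 were higher and none was lower by limma (1 at an unadjusted p under 0.05, none by limma-voom), with a median of 0.24 and 25% called against 6.78% of all rows. Atf3, a stress-induced transcription factor, was at 0.413 and 0.257 RPKM with vehicle and 1.13 and 1.28 RPKM with GW4064 (log2 change 1.60, adjusted p = 0.0133 from limma). Maff, a small Maf protein, rose from 0.767 and 0.967 RPKM to 2.33 and 2.58 RPKM (log2 change 1.41, adjusted p = 0.00662). Plk2 (0.95), Ier2 (0.88), Sik1 (1.01), Jun (0.99) and Zfp36l1 (0.65) were the other members called. The calls of Jun, Sik1 and Zfp36l1 were each lost without vehicle library 2 and without GW4064 library 2. Among the 23 heat shock genes, 30 NF-kappaB and inflammation genes and 47 autophagy and lysosome genes tested, none was called by limma, with medians of 0.05, -0.06 and -0.05. At an unadjusted p under 0.05, 6 heat shock genes were higher and 1 lower, 3 and 4 inflammation genes and 4 and 7 autophagy genes. With limma-voom, 3 heat shock genes were higher, 1 inflammation gene was lower, and 3 autophagy genes were higher and 4 lower. In the list of the unfolded protein response, Atf3 and Trib3 (0.49) were the 2 higher of 32 members, or 6.25% called, near the 6.78% of all rows. The call of Trib3 was lost without vehicle library 2 and without either GW4064 library.

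Genes of signalling feedback moved in both directions. Of 39 genes of cytokine and growth hormone signalling, 6 were higher and 2 lower (median -0.04), or 20.5% called against 6.78% of all rows. Socs3, an inhibitor of JAK kinases, was at 2.45 and 2.54 RPKM with vehicle and 6.37 and 6.11 RPKM with GW4064 (log2 change 1.29, standard error 0.06, adjusted p = 0.00162). Cish, another member of that family, rose from 1.2 and 0.965 RPKM to 3.93 and 5.56 RPKM (log2 change 2.02, standard error 0.18, adjusted p = 0.00687). The kinase Pim1 (0.73) and the interleukin receptor gene Il1r1 (0.61) were higher and the repressor Bcl6 (-1.19) was lower. Among 32 TGF-beta and BMP signalling genes, the inhibitors Ski (1.1) and Smad7 (0.36), the activin subunit Inhbe (0.51) and the target Id3 (0.89) were higher, and Smad3, the signal transducer, was lower. The share called was 15.6%. Smad3 fell from 1.73 and 1.84 RPKM to 0.979 and 0.896 RPKM (log2 change -0.86, adjusted p = 0.00693). Of these TGF-beta genes, Ski and Smad3 kept their calls without each library in turn, and Smad7, Inhbe and Id3 did not.

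Insulin signalling and FoxO target genes numbered 34, of which 3 were higher and 2 lower, or 14.7% called against 6.78% of all rows. Irs1, the insulin receptor substrate, fell from 3.51 and 3.62 RPKM to 2.18 and 1.87 RPKM (log2 change -0.79, adjusted p = 0.0109), and the transcriptional coregulator Cited2 was lower by -0.98 (adjusted p = 0.0132). G6pc, the glucose 6-phosphatase of liver, was higher by 0.57, a call lost without vehicle library 2. In the wider list of glucose and glycogen metabolism, 5 of 47 were higher and 3 lower, or 17.0% called. Pdk4 (1.59), which inhibits pyruvate dehydrogenase, and the glucose transporter Slc2a1 (0.60) were higher, whereas Pfkfb1 (-0.87) and Ugp2 (-0.71), which act in glycolysis and glycogen synthesis, were lower. Of these 4 genes, Pfkfb1 kept its call without each library in turn.

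Several further signalling lists held a few called members. Of 41 interferon-stimulated genes, 4 were higher and none was lower by limma (none at an unadjusted p under 0.05 or by limma-voom), with a median of 0.10. That is 9.76% called, against 6.78% of all rows. Mx2, an antiviral GTPase, rose from 1.46 and 1.39 RPKM to 2.85 and 2.49 RPKM (log2 change 0.86, adjusted p = 0.00826), Apol9a was higher by 0.59, Usp18 by 0.58 and Ifih1 by 0.42, and the calls of Usp18 and Ifih1 were lost when single libraries were left out. Of 26 p53 targets and growth arrest genes, Gadd45b (2.19), Gadd45g (1.49) and Plk2 were higher and Trp53inp1 (-0.53) was lower, a call lost when single libraries were left out. The share called in this list was 15.4%. Of 26 Wnt pathway genes and pericentral Wnt targets, Lgr4 (-0.76), a receptor that strengthens Wnt signals, Slc1a2 and Cyp2e1 were lower, and none was higher by limma (2 at an unadjusted p under 0.05, none by limma-voom). Here 11.5% were called. The call of Lgr4 was lost without GW4064 library 1.

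Amino acid metabolism showed enzymes of different routes moving in opposite directions. Of 51 genes of amino acid breakdown, 5 were higher and 3 lower, or 15.7% called against 6.78% of all rows, with a median of 0.06. Aass, the first enzyme of lysine breakdown, was at 8.66 and 7.51 RPKM with vehicle and 25.7 and 25.1 RPKM with GW4064 (log2 change 1.64, standard error 0.09, adjusted p = 0.00186). Hal, the histidine ammonia-lyase, was at 9.13 and 9.02 RPKM and rose to 21.1 and 21.0 RPKM (log2 change 1.21, standard error 0.06, adjusted p = 0.00162). Amdhd1, a later step of histidine breakdown that lies next to Hal, was higher by 0.73, and Aldh4a1, of proline breakdown, by 0.53. Cdo1 (-0.80), the cysteine dioxygenase, and Tdo2 (-0.62), the tryptophan dioxygenase, were among the lower ones. In the methionine cycle and one-carbon list, Cth, Pemt (1.09), which methylates phosphatidylethanolamine, Sardh (0.53) and Gnmt (0.41) were higher among 27 tested and none was lower by limma (5 at an unadjusted p under 0.05, 3 by limma-voom). The share called in that list was 14.8%. Sds (0.44) was also higher among the breakdown genes, and the calls of Sds, Sardh and Gnmt were each lost without vehicle library 2.

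Among 24 amino acid transporters, 4 were higher and 2 lower. Slc6a13, a carrier of GABA and taurine, was at 4.21 and 4.37 RPKM with vehicle and 9.50 and 9.98 RPKM with GW4064 (log2 change 1.16, standard error 0.06, adjusted p = 0.00209). Slc6a12 (0.68), its neighbour on chromosome 6 and a carrier of betaine, the taurine transporter Slc6a6 (0.82) and the mitochondrial carrier Slc25a47 (0.82) were higher, and Slc16a10 (-0.78) and the glutamate transporter Slc1a2 (-0.59) were lower. The call of Slc16a10 was lost without GW4064 library 2. Over all 191 tested solute carriers, 16 were higher and 9 lower, or 13.1% called against 6.78% of all rows, with a median of -0.05.

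Lipid genes were called in small groups. Of 45 genes of peroxisomes, 10 were higher and 1 was lower, or 24.4% called against 6.78% of all rows, with a median of 0.13. Of these 11, Ehhadh and Acaa1b kept their calls without each library in turn. Ehhadh, the bifunctional enzyme of peroxisomal beta-oxidation, was at 10.7 and 10.1 RPKM with vehicle and 19.3 and 18.9 RPKM with GW4064 (log2 change 0.88, adjusted p = 0.00478), and the thiolase Acaa1b rose from 25.9 and 26.3 to 43.4 and 46.1 RPKM (0.77, adjusted p = 0.00662). Of 46 genes of fatty acid oxidation and PPARα targets, 5 were higher and 2 lower, or 15.2% called, and the lower ones were Hadh (-0.44) and Ppara itself (-0.46). In fatty acid and triglyceride synthesis, Gpat3 (0.97), Elovl6 (0.82) and Elovl5 (0.82) were higher while Dgat2 (-0.61) and Lpin1 were lower. Of 35 genes of phospholipids and lysophospholipids, 5 were higher and 1 was lower, or 17.1% called. Mfsd2a (1.35), a lysophospholipid transporter, Pla2g6 (1.30), a calcium-independent phospholipase, Etnk2 (0.98), an ethanolamine kinase, Pemt and Sgms2 (0.42), a sphingomyelin synthase, were higher, and Chpt1 (-0.33), a cholinephosphotransferase, was lower. The calls of Sgms2 and Chpt1 were lost when any 1 library was left out. Among 27 genes of cholesterol synthesis and uptake, 2 were higher, among them the regulator Srebf2 (0.68), and none was lower by limma (1 at an unadjusted p under 0.05, none by limma-voom). The share called was 7.41%, near that of all rows. Among the fatty acid and triglyceride genes named, the calls of Hadh, Ppara, Gpat3, Elovl5 and Dgat2 were lost when at least 1 library was left out; that of Dgat2 was lost without vehicle library 2 alone.

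Drug metabolism and conjugation enzymes split in a similar way. Of 32 cytochrome P450 and related genes, 6 were higher and 3 lower, or 28.1% called against 6.78% of all rows. Cyp3a59 was at 2.34 and 2.39 RPKM with vehicle and 9.35 and 10.1 RPKM with GW4064 (log2 change 1.99, standard error 0.07, adjusted p = 0.00079), and Cyp2c29 was at 6.62 and 8.59 RPKM and rose to 18.0 RPKM in both GW4064 libraries (1.24, adjusted p = 0.00924). Cyp3a25 (0.95), Cyp3a11 (0.92) and the electron donor Por (0.55) were higher, and Cyp2c68 (-0.93) and Cyp2e1 (-0.48) were lower. Members of the Cyp2c and Cyp3a families are close copies, so reads may be split among them. Of 43 conjugation enzymes, 4 were higher, led by the glutathione transferases Gsta4 (0.90) and Gsta2 (0.67), and 5 were lower, among them Gsta3 (-0.87) and Ugt3a1 (-0.87). The share called was 20.9%. Gclm (0.58) and Gclc (-0.66), the subunits of the enzyme that makes glutathione's precursor, moved in opposite directions, and both kept their calls without each library in turn. The calls of Cyp2c68, Cyp2e1, Gsta2, Gsta3 and Ugt3a1 were lost when single libraries were left out.

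Lower calls outnumbered higher ones among complement, coagulation and acute phase genes. Of 46 complement and coagulation genes, 2 were higher (C3, 0.60, and C4a, 0.68) and 7 were lower (C9, F11, Masp1, Cfhr2, C4bp, F5 and Plg, from -0.86 to -0.34), or 19.6% called against 6.78% of all rows, while the median was -0.04. Of these 9, C9 kept its call without each library in turn. Of 32 acute phase proteins, Mug1, Serpina3m (-0.61) and Ttr (-0.51) were lower and Ambp (0.36) was higher, or 12.5% called. The calls of Ttr and Ambp were lost when single libraries were left out. The fibrinogen genes Fga, Fgb and Fgg had changes of 0.01, 0.07 and -0.04 (adjusted p from 0.633 to 0.964).

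Among 50 hepatocyte transcription factors, 5 were higher and 9 lower, or 28.0% called against 6.78% of all rows, with a median of -0.05. Of these, 2 higher and 3 lower ones kept their calls without each library in turn. Prox1 (0.63) and Srebf2 were among the higher ones, and Arid5b (-1.15), Bcl6 and Zhx3 (-0.81) were among the lower. In the circadian clock list, Usp2, a ubiquitin protease, was at 2.55 and 2.69 RPKM with vehicle and 6.56 and 6.10 RPKM with GW4064 (log2 change 1.24, standard error 0.07, adjusted p = 0.00211). Bhlhe40, a repressor of clock genes, was higher by 0.73. Hlf, a PAR-domain factor, fell from 3.28 and 3.33 RPKM to 1.78 and 1.63 RPKM (log2 change -0.91, standard error 0.07, adjusted p = 0.00486), and Cry2 was lower by -0.55. Csnk1e (0.48) was also higher, so that 3 of 22 clock genes were higher and 2 lower, or 22.7% called. The calls of Cry2 and Csnk1e were lost when single libraries were left out.

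Of 19 genes of bile acid synthesis and conjugation, 2 were higher and 4 lower, or 31.6% called against 6.78% of all rows, with a median of 0.05. Besides Akr1c6, the lower ones were Cyp39a1 (-0.79), an oxysterol hydroxylase, Akr1c14 (-0.56) and the conjugating enzyme Baat (-0.53), and Akr1d1 (0.39) and Amacr (0.34) were higher. Cyp7a1, the rate-limiting enzyme, was at 13.8 and 16.4 RPKM with vehicle and 9.67 and 12.6 RPKM with GW4064, a log2 change of -0.44 that did not pass the test (standard error 0.15, adjusted p = 0.167). Cyp8b1, which sets the share of cholic acid, had a change of 0.05 (adjusted p = 0.808). In WT GRO-seq, with 1 library a side, Cyp7a1 went from 14.4 RPKM with vehicle to 3.83 RPKM with GW4064. Cyp8b1 went from 31.9 to 48.1 RPKM there. In FXR KO, Cyp7a1 went from 49.8 to 55.4 RPKM and Cyp8b1 from 106 to 74.8 RPKM. Among 22 transporters of bile acids and organic anions, 4 were higher and 1 was lower, or 22.7% called. Atp8b1 (0.93), a phospholipid flippase of the canalicular membrane, and the carnitine carrier Slc22a5 (0.59) were higher besides Abcb11 and Abcb4, and Slco2a1 (-0.49) was lower. In the list of best-known FXR targets, 8 of 25 were higher and 2 lower, or 40.0% called. Of the 6 bile acid synthesis genes called, Akr1c6 kept its call without each library in turn, and the calls of Slc22a5 and Slco2a1 were lost in some of these fits.

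Housekeeping groups and some other lists gave few calls. Of 75 tested cytosolic ribosomal protein genes 1 was called, of 76 mitochondrial ribosomal protein genes none, of 79 oxidative phosphorylation subunits 2, of 46 proteasome subunits 1 and of 30 splicing factors none, against 6.78% of all rows. The cytosolic ribosomal genes had a median of 0.16, with 12 higher and 1 lower at an unadjusted p under 0.05 by limma and none called by limma-voom. No Kruppel-like factor (13 tested), small nucleolar RNA host gene (17), replication-dependent histone (43), collagen (10) or major urinary protein gene (18) passed the test. The small nucleolar RNA host genes had a median of 0.17, with 4 higher and none lower at an unadjusted p under 0.05. With the mitochondrial ribosomal and splicing genes, these 7 groups without a call by limma held 207 tested rows, of which 23 were higher and 12 lower at an unadjusted p under 0.05, and 1 was higher and 5 lower by limma-voom.

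**Figure D3:**
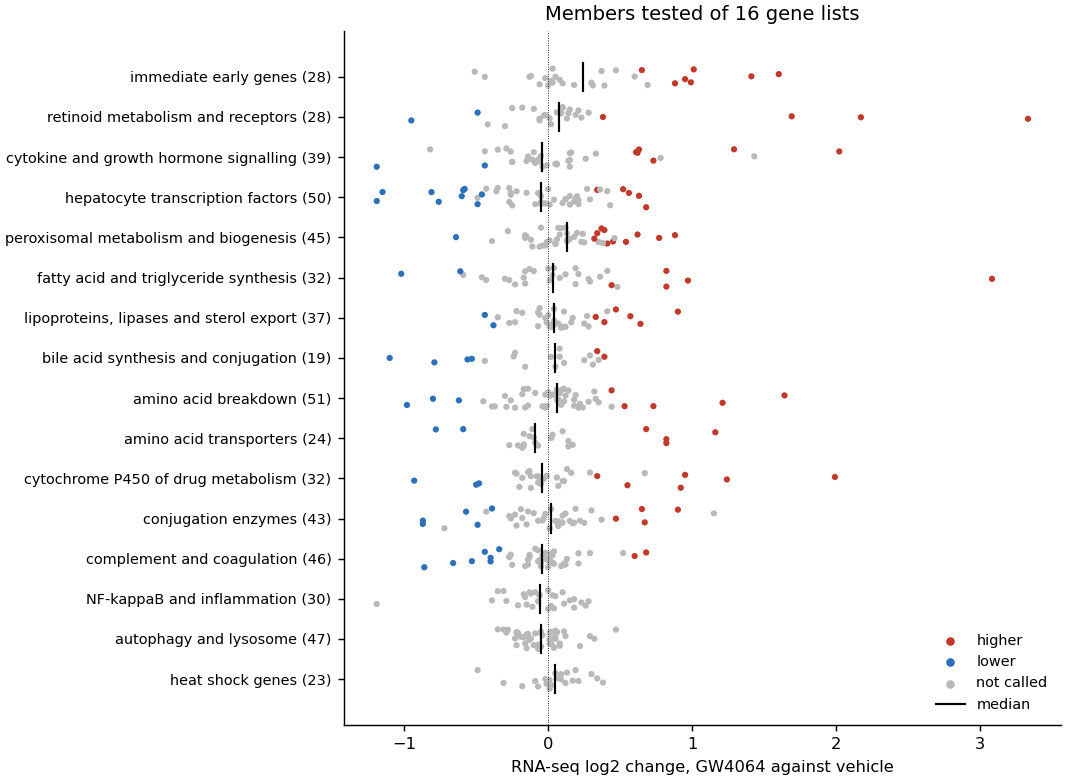
log2 change of every tested member of 16 gene lists (number tested in brackets), with higher members in red, lower in blue and members not called in grey, and the list median as a black bar. List medians lie between -0.10 and 0.24, and the called members are spread to both sides in most lists.

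Row length and level went with the share of rows called. Lower rows were longer than higher rows, with medians of 36.7 kb and 20.2 kb against 16.6 kb for rows not called, and 40.6% of lower rows were at least 50 kb long against 21.0% of higher rows and 18.5% of rows not called. In rows from 0.3 to 5 kb, 3.01% were higher and 1.32% lower, whereas in rows from 50 to 150 kb 4.54% were higher and 6.31% lower. The share of higher rows rose with level from 1.76% at 0.5 to 1 RPKM to 12% of the 184 rows at 20 RPKM or more, and that of lower rows lay between 1.32% and 3.27% throughout. A longer or denser row holds more reads, and how much of these shares follows from read number was not tested.

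**Figure D4:**
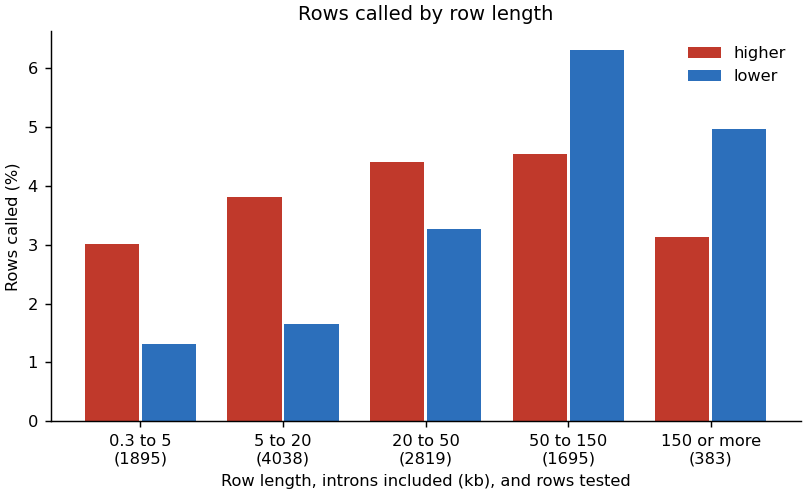
Percentage of tested rows called higher (red) or lower (blue) in 5 classes of row length in kb, introns included, with the number of rows tested in brackets. Lower calls outnumber higher calls in the classes of 50 to 150 kb and of 150 kb or more.

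Higher rows often lay side by side. Among 5715 pairs of consecutive tested rows that did not overlap and were at most 50 kb apart, 51 had both rows higher, 15 had both lower and 5 had opposite calls. Of the 291 higher rows with such a neighbour, 32.0% had a higher neighbour, and of all 8006 rows with a neighbour 4.91% had one. Of the 51 pairs, 25 were on the same strand, 14 had their starts facing away from each other and 12 had their ends facing each other. The pairs thus included all orientations.

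There were 7 runs of 3 or more consecutive higher rows, with 23 rows in all, and their genes were named after their values were seen. The longest, on chromosome 2 (mm10) from 25428599 to 25493911, held Abca2, Clic3, Paxx, Ptgds and Lcn12, with log2 changes of 0.67, 4.54, 2.62, 3.04 and 2.27. Another run on chromosome 2, from 69219949 to 69403086, held G6pc2 (4.53), Abcb11 (2.37) and Dhrs9 (1.69). On chromosome 4, from 133553376 to 133591735, Nr0b2 (2.54) was followed by Gpatch3 (1.15) and Gpn2 (0.93). On chromosome 16, Cxadr (1.25), an adhesion molecule, and Btg3 (1.26), an antiproliferative gene, were higher next to E330011O21Rik (0.76). On chromosome 6, Usp18 (0.58), Slc6a13 and Slc6a12 lay in a row. The runs around Etnk2 on chromosome 1 and Klhdc7b (1.80) on chromosome 15 each held members whose calls were lost when single libraries were left out (Kiss1 and Sox13, Odf3b and Cpt1b), and the calls of Usp18 and E330011O21Rik were lost in the same way. For rows that lie close together, the table cannot tell reads of a gene from reads that run past its neighbour's end.

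Non-coding rows were called at 9.03% of 609 and protein-coding rows at 6.61% of 10124. Mkln1os, which starts 55 bases from Mkln1 on the opposite strand, was at 0.621 and 0.668 RPKM with vehicle and 3.25 and 3.06 RPKM with GW4064 (log2 change 2.13, standard error 0.07, adjusted p = 0.00079), and Mkln1 was higher by 0.59. In all, 34 non-coding rows were higher and 21 lower. Of the 424 higher and 310 lower rows, 27 and 20 overlapped another row over at least 50% of their length, as did 657 of all 10830 rows tested.

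Promoter sequences were compared with the FXR element in its perfect form, AGGTCANTGACCT, which reads the same on both strands. RefSeq promoters (GRCm38.p6, from 250 bases before to 50 after a start) were matched by symbol for 327 of the 424 higher and 225 of the 310 lower rows. With at most 2 mismatches, the letters were found in 9 higher genes (2.75%) and 1 lower gene (0.444%), against 1.35% of all 27025 symbols in the promoter table and 1.2% of the 8592 rows tested that had a promoter. With at most 1 mismatch they were found in 3 higher genes, Abcb11, Steap3 and Rdh9, and in no lower gene, against 0.0999% of all symbols. The windows of the 5 matching genes that had risen by at least 1 on the log2 scale are shown, with 8 bases on each side (7 before the match in Maff, where the promoter sequence begins) and the 13 bases set against the element in capitals, mismatched bases included, on the strand of the gene.
Abcb11, chr2:69342659-69342687, 1 mismatch: tggactttAGGCCATTGACCTataagcaa
Steap3, chr1:120270356-120270384, 1 mismatch: atgacctgAGGTCAATGACCGaccggcac
Slc20a1, chr2:129207006-129207034, 2 mismatches: aagcttccAGGACTCTGACCTcatttttg
Fam47e, chr5:92571471-92571499, 2 mismatches: ctgccccaAGGCCTTTGACCTtgcagtct
Maff, chr15:79346371-79346398, 2 mismatches: accagaaAGATCAGTGACATgggcaaag

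The match began 63 bases before the start in Abcb11, 106 in Steap3, 82 in Slc20a1, 58 in Fam47e and 243 in Maff. Steap3, a ferrireductase chosen for its promoter after its values were seen, was at 0.741 and 0.716 RPKM with vehicle and 2.50 and 1.73 RPKM with GW4064 (log2 change 1.40, standard error 0.17, adjusted p = 0.0143). A match is a description of the letters in this window and does not show binding, and elements outside these windows were not searched.

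The RNA changes were set beside GRO-seq ratios from other mice, 1 library per genotype and treatment, so these ratios have no replicate check. In WT liver, 418 higher rows had at least 20 GRO-seq reads in either library, and 316 of them (75.6%) were at least 1.5-fold higher there too, against 6.18% of all 10499 such rows. Of 307 lower rows, 188 (61.2%) were at least 1.5-fold lower, against 7.17% of all rows. The median GRO-seq log2 ratio was 0.94 for higher rows and -0.70 for lower rows, with -0.10 over all rows. Over all 10499 rows the RNA change and the WT GRO-seq ratio had a Pearson r of 0.73 and a Spearman correlation of 0.58. Across the 725 called rows, which were selected for their RNA change, Pearson r was 0.93. These values describe genes, which are not independent.

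In FXR KO liver, 53 of 384 higher rows (13.8%) were at least 1.5-fold higher by GRO-seq, against 2.91% of 9749 rows, and 26 of 301 lower rows (8.64%) were at least 1.5-fold lower, against 3.72%. The median ratios were 0.06 for higher rows and -0.16 for lower rows, with -0.03 over all rows. Pearson r was 0.16 over all 9749 rows and 0.38 across the 685 called rows. The KO libraries had 5069395 and 5141663 rebuilt reads, fewer than the WT libraries (10593344 and 14173721). The difference between genotypes was not tested.

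**Figure D5:**
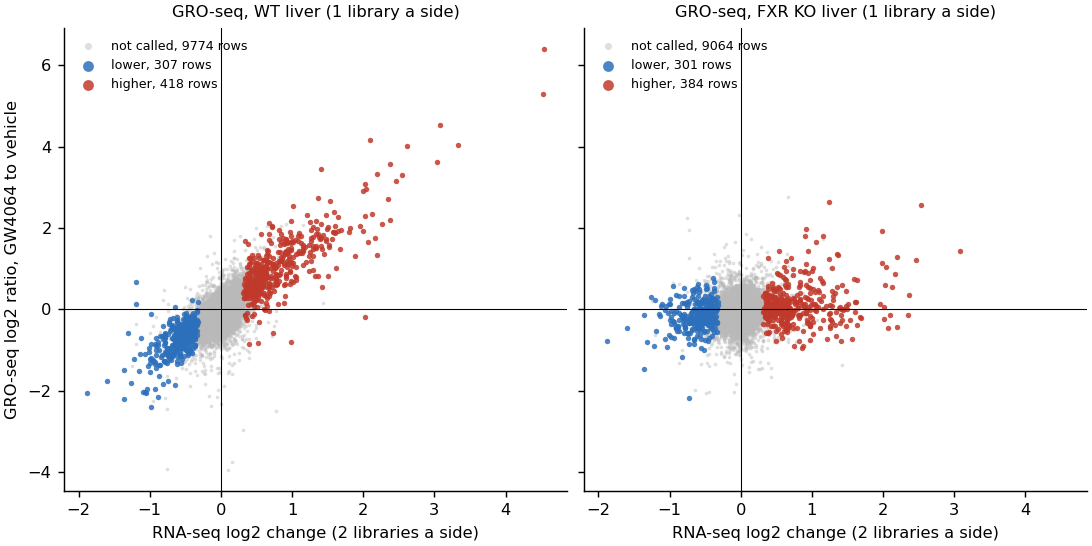
RNA-seq log2 change (x axis, 2 libraries a side) against the GRO-seq log2 ratio of GW4064 to vehicle (y axis, 1 library a side) in WT liver (left) and FXR KO liver (right), for tested rows with at least 20 GRO-seq reads in either library. Rows higher by RNA-seq have a median GRO-seq ratio of 0.94 in WT and 0.06 in FXR KO, and rows lower by RNA-seq have medians of -0.70 and -0.16.

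Some of the genes described above show how the genotypes compared. Cth was at 4.29 RPKM in the vehicle library and 78.4 RPKM in the GW4064 library of WT GRO-seq, and at 9.61 and 8.73 RPKM in FXR KO. Igfbp2 was at 4.2 and 46.4 RPKM in WT and at 12.6 and 7.24 RPKM in FXR KO. Hal was at 5.75 and 29.3 RPKM in WT and at 3.81 and 2.25 RPKM in FXR KO. Among lower genes, Akr1c6 was at 17.3 and 4.14 RPKM in WT and at 16.7 and 18.4 RPKM in FXR KO, and Lpin1 was at 29.7 and 11.4 RPKM in WT and at 37.0 and 34.9 RPKM in FXR KO. Each of these 5 genes changed in WT in the direction of its RNA. In FXR KO, Cth (log2 ratio -0.14), Akr1c6 (0.14) and Lpin1 (-0.08) stayed within 1.5-fold, whereas Igfbp2 (-0.79) and Hal (-0.74) were more than 1.5-fold lower, opposite to their RNA in WT.

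A smaller group was also higher in FXR KO GRO-seq. In FXR KO, Cyp2c29 was at 24 RPKM in the vehicle library and 151 RPKM in the GW4064 library, and in WT it was at 16.1 and 39.9 RPKM. Cyp3a59 was at 1.97 and 7.70 RPKM in FXR KO and at 1.11 and 4.46 RPKM in WT. Tsku, a secreted protein named here for its KO ratio after its values were seen, was at 12.6 and 40.2 RPKM in FXR KO and at 23.9 and 41.5 RPKM in WT, and its RNA-seq level rose by 1.06 on the log2 scale (adjusted p = 0.0023). Cyp3a11, Pdp2, Mfsd2a, Gadd45b and Thrsp, chosen in the same way, had KO log2 ratios of 1.98, 1.44, 1.35, 1.29 and 1.44. For Thrsp these rest on 12 and 36 reads, and for Nr0b2, with a KO log2 ratio of 2.57, on 2 and 20 reads.

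RNA and GRO-seq went opposite ways, by at least 1.5-fold in WT GRO-seq, in 4 called rows: Phlda1, Alyref2 and Zyg11a, which were higher by RNA, and Pdgfrl, which was lower. Phlda1, an early-response gene, was at 5.74 and 4.85 RPKM in vehicle RNA-seq and 11.7 and 9.56 RPKM after GW4064, but at 20.7 and 11.7 RPKM in WT GRO-seq. Pdgfrl was at 0.982 and 1.11 RPKM in vehicle RNA-seq and 0.415 and 0.382 RPKM after GW4064, and at 0.655 and 1.1 RPKM in WT GRO-seq. Cish, whose RNA rose by 2.02, had a WT GRO-seq log2 ratio of -0.20, and Bcl6, whose RNA fell by 1.19, had one of 0.12. These pairs come from different animals, with 1 GRO-seq library a side.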

How the data were processed

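Liver RNA-seq (2 libraries per treatment) and GRO-seq (1 per genotype and treatment) were analysed from the deposited table of RPKM values. The authors mapped reads to mm10 with STAR (2.7.3a in the submitters' processing notes), quantified genes with HOMER and scaled to row length and library total. The labels name a stranded TruSeq mRNA kit and the Methods a Kapa HyperPrep mRNA kit said to give polyadenylated libraries, both after rRNA removal. Whether RNA without a poly(A) tail was kept is not settled by these sources. Whole reads were rebuilt from RPKM, length and a library total; 99.98% to 100% of tested values came out whole within 0.15. The listed rows held 92.0% to 92.4% of the RNA-seq reads.

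Rows of at least 300 bases with a mean of at least 0.5 RPKM were tested with limma 3.58.1 (R 4.3.3) on log2(RPKM + 0.1), with treatment as the only term, eBayes trend=TRUE and robust=FALSE, and Benjamini-Hochberg adjustment; fold changes on this scale understate low rows. The 2 residual degrees of freedom were joined by 3.22 prior ones. In simulated data with the real means and depths, every row was given the same dispersion of 0.00425. There the test called 64.2% of rows with a true 1.5-fold change, 98.2% at 2-fold and 11 of 10630 unchanged rows. Real rows differ in spread, so these shares may not hold for the data.

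The genes, lists and settings were chosen with earlier results of these data known. Named genes are called rows whose groups do not overlap: the 30 largest increases and 30 largest decreases, leaving out the best-known FXR targets, predicted genes, clones, pseudogenes and small RNAs. Up to 4 members per list with the smallest p, all called members of lists with under 10 called, all members of the best-known FXR target list and of a list of genes the study names, and Nr1h4 were added; this gives 364 genes. A further 27 were named after their values were seen, for neighbours, promoters, GRO-seq or replicate spread. Of the list of genes the study names, 11 were tested, 1 was higher (Igfbp2) and 1 lower (Lpin1), or 18.2% called against 6.78% of all rows. For GRO-seq, 0.1 RPKM was added to both libraries of a pair before the log2 ratio was taken. Tables and figures were made with Python 3.11.15, pandas 2.3.3 and matplotlib 3.10.9. Results for a few genes and 1 list are not reported here, and their rows stayed in the fit.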

Additional observations from a re-analysis of the deposited data

How the results depend on the processing

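The 424 higher and 310 lower rows became 151 and 53 at an adjusted p under 0.01, 115 and 22 with a 2-fold minimum, 169 and 66 with limma treat against 1.2-fold, 243 and 131 with no minimum length, 64 and 19 with no filter on the mean, and 640 and 631 with limma-voom on rebuilt reads. Without a minimum length or filter, more rows are tested (11408 and 19433). Leaving out each library in turn gave 257 to 322 higher and 118 to 186 lower rows. An added 0.01 or 1 RPKM, means of at least 0.1 or 1 RPKM, a length of at least 1000 bases, overlapping rows left out, quantile normalization, median centring and eBayes with trend=FALSE or robust=TRUE kept both counts within 1.5 times, with 371 to 453 higher and 225 to 333 lower rows; the cause of the remaining differences was not tested.

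With the replicate number as a block, 494 rows were higher and 363 lower. What same-numbered libraries share beyond the number is not given by the labels and was not tested. Over the rows tested, the replicate differences of vehicle and GW4064 had a correlation of 0.098.

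Of 253 called genes named, 38 kept their call under all 19 alternative settings in which they could be tested, among them Cth, Asap3, Arhgef7, Slc20a1, Rnf186, Igfbp2, Socs3, Hal, Aass, Usp2, Rnf217 and Nr1h4. Without each library in turn, 138 kept it. No named gene changed direction past the threshold. The limits are 2 pooled libraries a side, a single time, rows that include introns, overlapping rows that cannot be separated, and GRO-seq without replicates.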

Other observations

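Some genes differed more between replicates than between treatments. They were taken as the rows with the widest replicate difference among those with a mean of at least 1 RPKM, and were chosen after their values were seen. Socs2, a growth hormone-induced inhibitor of cytokine signalling, was at 4.16 and 2.42 RPKM with vehicle and at 2.84 and 10.7 RPKM with GW4064 (log2 change 0.78, adjusted p = 0.518 from limma). The acute phase genes Saa1 and Saa2 were higher in replicate 1 of both treatments: Saa1 was at 14.5 and 5.59 RPKM with vehicle and 11.4 and 5.41 RPKM with GW4064, and Saa2 at 10.4 and 3.27 and at 6.22 and 3.03 RPKM. Cdkn1a, a cell cycle inhibitor, was at 5.86 and 1.84 RPKM with vehicle and 5.23 and 3.07 RPKM with GW4064. Dbp, a clock output gene, went the other way, at 2.27 and 6.79 RPKM with vehicle and 2.80 and 5.21 RPKM with GW4064. Replicates differed by at least 2-fold in 18 of the 10830 rows with vehicle and in 31 with GW4064.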
